A study of Oryza sativa with 18 samples.

Results

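The response of rice seedlings to 3 days of Zn resupply was compared between roots and shoots. For each locus, the root response was the difference between resupplied and -Zn roots (ZRR minus ZMR), and the shoot response was that between resupplied and -Zn shoots (ZRS minus ZMS). The tissue difference was the root response minus the shoot response. All 3 quantities are on the scale of log2(FPKM + 0.5), where FPKM is the sequenced fragment number scaled to transcript length and library size, so differences of loci with low FPKM are understated. Of 34716 loci in the series, 17343 reached 0.5 FPKM in 3 or more of the 6 ZRR and ZMR libraries and also in 3 or more of the 6 ZRS and ZMS libraries, and these were tested. Another 3337 loci passed in roots only, 2040 in shoots only and 11996 in neither tissue.

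The seedlings were of Oryza sativa cv. Nipponbare, a japonica cultivar, grown in nutrient solution. ZRR and ZRS plants had been without Zn for 14 days and were then given 1.5 µM ZnSO4 for 3 days, ZMR and ZMS plants had been without Zn for 14 days, and ZPR and ZPS plants had 1.5 µM ZnSO4 throughout. Roots and shoots were sampled, and each group had 3 libraries of poly(A) RNA, each from a pool of 3 seedlings. Because resupply lasted 3 days beyond the -Zn treatment, its effect and that of seedling age or harvest day cannot be told apart. The labels do not say whether root and shoot libraries of the same number came from the same seedlings. FPKM is a share of the RNA of an organ sample, in which more RNA per cell and more cells of a type cannot be told apart.

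Plants take up Zn through ZIP transporters, which move metal ions into the cytosol, and Zn deficiency is known to raise the transcripts of many of them. Inside the plant, nicotianamine and related chelators carry Zn and Fe, P-type heavy-metal ATPases and MTP proteins move metals out of the cytosol, and metallothioneins, small proteins rich in cysteine, bind Zn and Cu. Roots meet the resupplied Zn first, whereas shoots receive what the xylem delivers. The comparison asks which genes were reset to a different degree in these organs.

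The resupplied shoot libraries did not behave alike. The median of log2(FPKM + 0.5) differences from the mean of ZMS was -0.46 in ZRS 1, 0.07 in ZRS 2 and -0.23 in ZRS 3, and 81.4%, 42.3% and 69.1% of tested loci were lower than that mean. In roots the medians from the mean of ZMR were -0.01 in ZRR 1, 0.05 in ZRR 2 and 0.21 in ZRR 3. The 10 most abundant loci held 15.5% and 16.9% of all FPKM in ZRS 1 and ZRS 3, 9.39% in ZRS 2, and between 9.61% and 11.3% in ZMS libraries. Transcripts classed by the authors' files as intronic, intergenic or similar fragments held 16.8% of isoform FPKM in ZRS 1 and between 1.80% and 5.14% in the other 17 libraries. Depth, as isoform coverage per FPKM, was lowest in ZRR 3, at 3.67 reads per base per FPKM, and between 6.0 and 7.75 in the others. The tissue labels held: light-harvesting and Rubisco small subunit loci summed to between 5057 and 8792 FPKM in ZRS and ZMS and to between 136 and 277 FPKM in ZRR and ZMR, while root marker loci summed to between 830 and 2622 FPKM in roots and to between 7.66 and 29.9 FPKM in shoots.

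**Figure D1:**
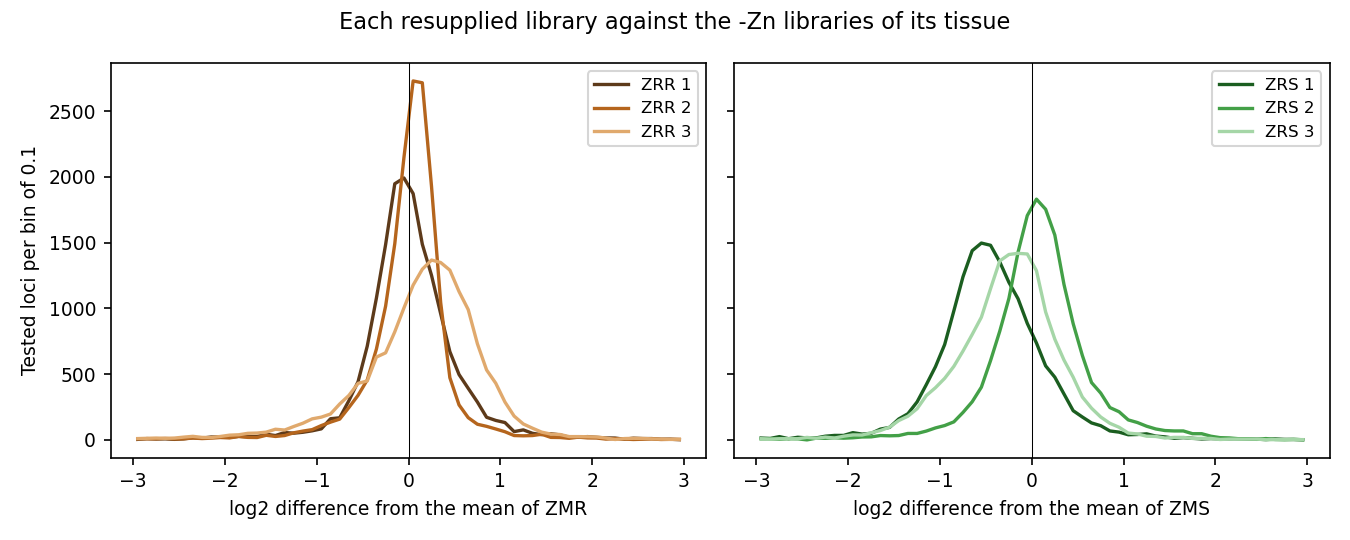
Distribution over the 17343 tested loci of the log2(FPKM + 0.5) difference between each resupplied library and the mean of the 3 -Zn libraries of its tissue, for roots (left) and shoots (right), in bins of 0.1. The curves of ZRS 1 and ZRS 3 lie to the left of 0, with medians of -0.46 and -0.23, and that of ZRR 3 lies to the right, with a median of 0.21.

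No locus passed the thresholds for a tissue difference. With limma on all 18 libraries, 0 of 17343 loci (0%) had an adjusted p of at most 0.05 with a tissue difference of at least 1 on the log2 scale, and the smallest adjusted p was 0.173. At an unadjusted p under 0.05 there were 887 loci (5.11%), of which 776 (4.47%) had a positive and 111 (0.64%) a negative tissue difference. That imbalance went with a shift over all tested loci: the median tissue difference was 0.28, made of 0.08 in roots and -0.21 in shoots. After median-of-ratios scaling the median was 0.02, with 267 positive (1.54%) and 276 negative (1.59%) loci at an unadjusted p under 0.05. That scaling brings the libraries together by design, so it cannot tell a scaling effect from a broad fall in shoots. The cause was not tested. A positive value for a single locus should be read beside the median of 0.28. When limma weighted each library by its own spread, 2135 loci were called, 1785 positive and 350 negative. These weights were 5.33 for ZRR 2 and 4.85 for ZRS 3, against at most 0.43 for each of the other 4 resupplied libraries, so that in each tissue 1 resupplied library carried most of the response.

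The data limited what could be called rather than showing that the organs responded alike. The median standard error of a tissue difference was 0.41, and its 95% interval reached 0.86 to either side. Intervals lay wholly within -1 and 1 at 5121 loci, 29.5% of those tested, and 1185 loci had an estimate of at least 1 in size, 822 positive and 363 negative.

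Within a tissue, 1 locus was called higher (0.00577%) and 13 lower (0.075%) in ZRR against ZMR, together 0.0807% of those tested. None was called higher and 10 lower in ZRS against ZMS (0.0577%). At an unadjusted p under 0.05 there were 544 loci in roots (3.14%), 240 higher (1.38%) and 304 lower (1.75%), and 1353 loci in shoots (7.8%), 89 higher (0.513%) and 1264 lower (7.29%). The shoot count rested on ZRS 2: without it 287 loci were called (3 higher, 284 lower), and without ZRS 1 there were 22, while the tissue difference had 3 calls without ZRS 2 and 1 without ZRS 1. Of these calls, 7 loci were called in both tissues, 7 in roots only and 3 in shoots only. A call in only 1 tissue does not show that the tissues differ, and 10 of the 17 loci had an unadjusted p under 0.05 for the tissue difference. All ZRR libraries were above all ZMR libraries at 4.52% of tested loci and below them at 2.57%, and all ZRS libraries were above all ZMS libraries at 0.819% and below them at 9.29%. Over both tissues, ZRR was above ZMR while ZRS was below ZMS at 45 loci (0.259%), and the reverse held at 4 loci (0.0231%). ZRR and ZRS were both above the -Zn libraries of their tissue at 7 loci (0.0404%) and both below them at 81 loci (0.467%).

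**Figure D2:**
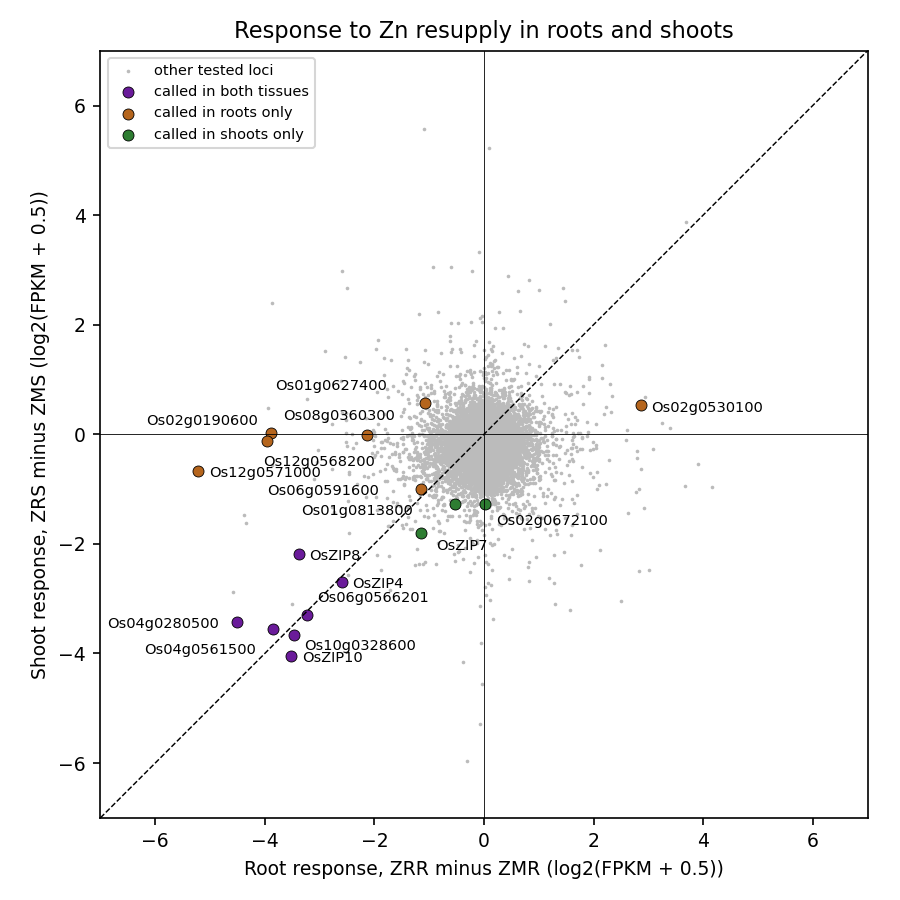
Root response (x axis, ZRR minus ZMR) against shoot response (y axis, ZRS minus ZMS) of the 17343 tested loci, both in log2(FPKM + 0.5), with the 17 loci called in at least 1 tissue coloured and named. The dashed diagonal marks equal responses, and the vertical distance from it is the tissue difference. The 7 loci called in both tissues lie near the diagonal at the lower left, and the metallothioneins Os12g0568200 and Os12g0571000 lie far to the left of it. Os02g0190600 was listed at 0 in all ZRR libraries, so its position is no fold change.

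Among the gene lists with at least 5 tested loci, the metallothioneins had the most negative median tissue difference, carried by roots. Of these loci, 6 lie in a cluster on chromosome 12 (IRGSP-1.0, 23352018 to 23516034). In all 6 every ZRR library was below every ZMR library, an order found at 2.57% of all tested loci. Os12g0568200 (chromosome 12, 23383189 to 23384177, minus strand) had 10.0, 9.23 and 2.54 FPKM in ZRR, against 122.5, 112 and 84.4 FPKM in ZMR. In shoots it was near the detection limit, with 1.44, 0.868 and 0.320 FPKM in ZRS and 1.50, 0.253 and 1.34 FPKM in ZMS, and the shoot groups overlapped. Its root response was -3.96 ± 0.51 (log2, SE, adjusted p = 0.00271), its shoot response -0.12 ± 0.51, and its tissue difference -3.84 (95% interval -5.39 to -2.30, adjusted p = 0.319). With 0.5 added to FPKM, its ZMS level left no room for a fall in shoots as large as in roots. Part of its tissue difference was therefore fixed by the shoot level.

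Os12g0571000 (23512501 to 23513406, plus strand), also annotated as a type-1 metallothionein, had 11.8, 3.85 and 1.19 FPKM in ZRR, against 459.5, 112 and 88.1 FPKM in ZMR. It fell by 5.21 on the log2 scale in roots (adjusted p = 0.00645), while ZRS had 1.14, 0.322 and 0.262 FPKM and ZMS had 2.29, 0.465 and 1.02 FPKM. Its tissue difference was -4.55 (95% interval -6.78 to -2.32), and its ZMS level likewise left no room for an equal fall in shoots. The neighbouring Os12g0571100, annotated as a metallothionein with a role in scavenging reactive oxygen, was the most abundant of the cluster, with 2411, 1271 and 247 FPKM in ZRR and 7357, 4553 and 3397 FPKM in ZMR. In shoots it stayed between 4.21 and 7.80 FPKM in ZRS and ZMS. Its root response of -2.41 was not called (adjusted p = 0.837).

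The other 3 loci of the cluster had the same order in roots, without being called. Os12g0568500 had 330.2, 191.5 and 17.3 FPKM in ZRR, 795, 1806 and 497 FPKM in ZMR, and 2599, 2355 and 3562 FPKM in +Zn roots (ZPR). Os12g0570700 had 21.3, 10.4 and 3.09 FPKM in ZRR and 207, 91.8 and 25.1 FPKM in ZMR. Os12g0567800 had 28.3, 20.4 and 9.53 FPKM in ZRR and 51.9, 54.4 and 44.5 FPKM in ZMR, and it was below 1 FPKM in all ZRS and ZMS libraries. That level left no room for a shoot fall as large as its root response of -1.47. At every locus of the cluster except Os12g0571100, resupplied roots were also below +Zn roots, without overlap of ZRR and ZPR. +Zn roots had 44.5, 37.4 and 80.4 FPKM at Os12g0568200 and 61.4, 36.2 and 75.7 FPKM at Os12g0571000. They had 69.9, 38.45 and 400.3 FPKM at Os12g0570700 and 38.5, 33.2 and 62.3 FPKM at Os12g0567800. At Os12g0571100 they had 1588, 2496 and 4652 FPKM, which overlapped with ZRR.

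Metallothioneins outside chromosome 12 had wide intervals, and their difference from the cluster was not tested. Of 14 metallothionein loci in the files 10 were tested, with a median tissue difference of -1.72 against 0.28 over all tested loci. The median was -1.93 after median-of-ratios scaling and -0.92 without ZRS 1 and ZRR 3. At an unadjusted p under 0.05, 0 were positive and 4 negative (4.47% and 0.64% of all tested loci). The intervals of Os05g0111300 (tissue difference 1.40, 95% interval -0.52 to 3.32), Os11g0704550;Os11g0704500 (0.91, -3.24 to 5.06), Os01g0149800 (0.64, -1.15 to 2.43) and Os01g0200700 (-0.99, -3.69 to 1.71) held 0. Os01g0200700 was the shoot metallothionein of highest level, at 3038, 1657 and 3163 FPKM in ZRS and 3430, 2244 and 2109 FPKM in ZMS.

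In every locus of the chromosome 12 cluster the lowest root library was ZRR 3, which was also the shallowest library and had the lowest root marker sum, 830 FPKM, against 1375 and 2058 FPKM in ZRR 1 and ZRR 2 and 1707, 2622 and 1958 FPKM in ZMR. Of the 7 marker loci, 3 or 4 were above 0.5 FPKM in each of these root libraries. The part of these differences in the metallothionein result was not tested. Without ZRR 3 the tissue difference of Os12g0568200 was -3.26, that of Os12g0571000 was -3.84 and that of Os12g0571100 was -1.48. The loci are short and alike, and reads with several alignments were allowed, so FPKM may be shared between copies. Os12g0567800 and Os12g0568200 also overlap the plus-strand locus Os12g0568166.

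**Figure D3:**
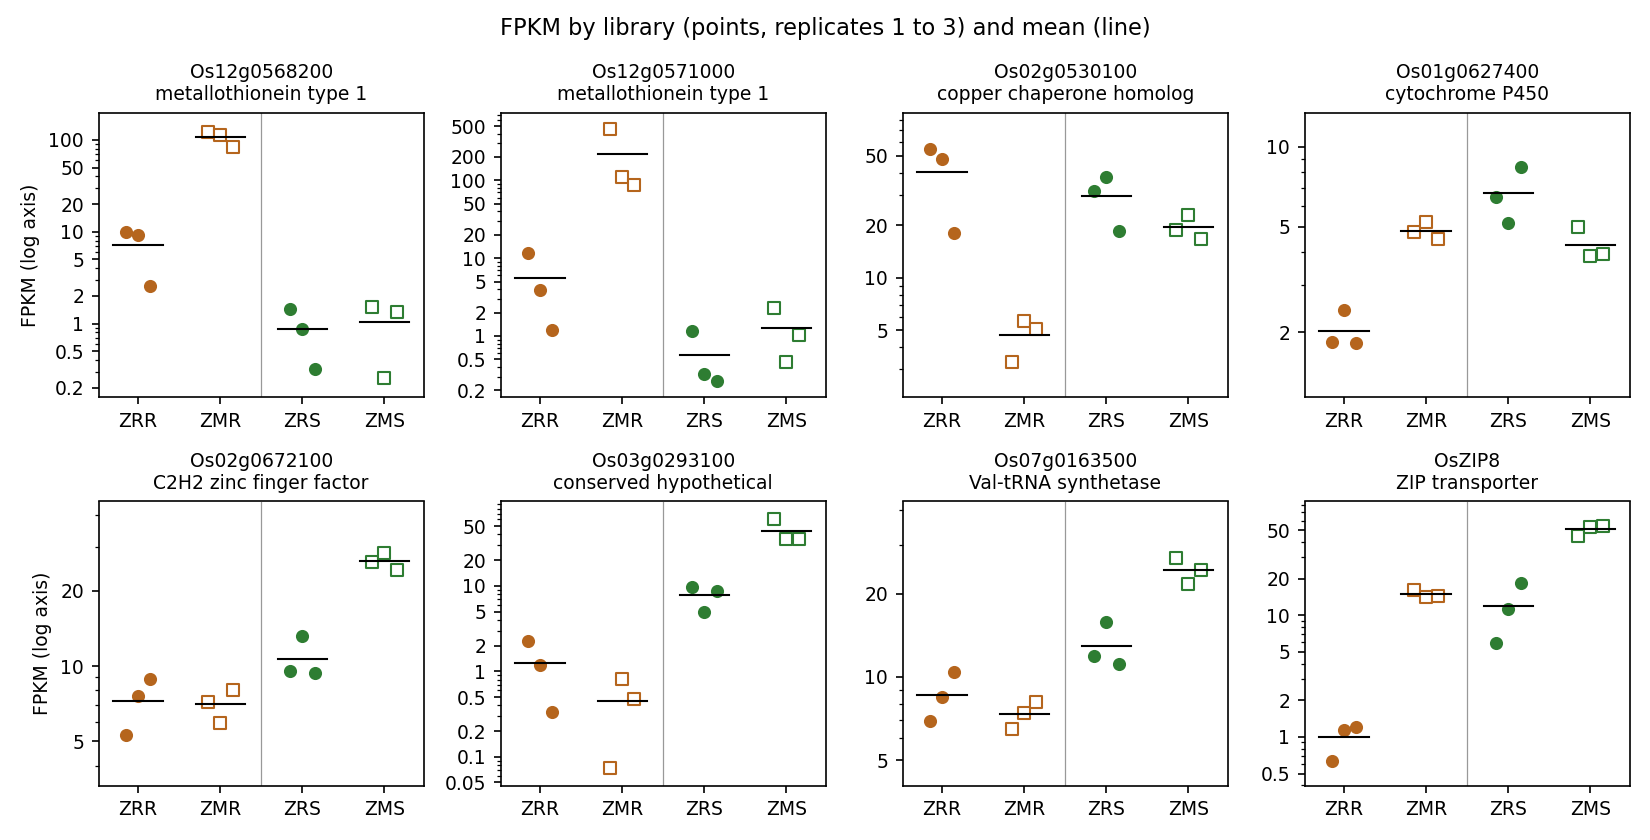
FPKM of 8 loci in each library of ZRR, ZMR, ZRS and ZMS on a log axis, with filled circles for resupplied and open squares for -Zn libraries, roots in brown and shoots in green, and the group mean as a line. ZRR lies below ZMR in the metallothioneins and in Os01g0627400 and above it in Os02g0530100, while in Os02g0672100, Os03g0293100 and Os07g0163500 the gap is between ZRS and ZMS, and in OsZIP8 both tissues have one.

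A Cu chaperone gene was the only locus called as higher in resupplied roots in the main fit. Os02g0530100 (chromosome 2, 19472213 to 19486248), annotated as the copper chaperone homolog CCH, encodes a small protein of a family that hands Cu on inside the cell. It had 55.1, 48.1 and 18.1 FPKM in ZRR, against 3.31, 5.64 and 5.08 FPKM in ZMR, a response of 2.86 ± 0.43 (log2, SE, adjusted p = 0.0128, or 0.066 with replicate number as a block within each tissue). In shoots ZRS had 31.4, 38.0 and 18.6 FPKM and ZMS had 18.9, 23.0 and 16.6 FPKM, which overlapped. The tissue difference was 2.33 (95% interval 1.02 to 3.64, unadjusted p = 0.00177) and 2.02 after median-of-ratios scaling. +Zn roots were at 4.15, 3.10 and 9.01 FPKM, so resupplied roots were above both other root groups. Of 33 tested loci with a heavy-metal-associated domain or a Cu chaperone annotation, a list made after the values were seen, 1 was called in roots and the median tissue difference was 0.22. Os03g0345700 of that list, annotated with a heavy-metal-associated domain, had a larger but less certain value of 2.44 (-0.17 to 5.06), or 1.61 without ZRS 1. It had 80.7, 42.8 and 45.0 FPKM in ZRR and 10.6, 65.5 and 14.1 FPKM in ZMR, and the groups overlapped in roots and in shoots. The 4 tested Cu/Zn superoxide dismutase and chaperone loci ranged from 0.31 to 0.56, and OsCSD1, a cytosolic superoxide dismutase, had 229, 302 and 318 FPKM in ZRR and 168, 233 and 246 FPKM in ZMR.

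Os01g0627400 (chromosome 1, 25036495 to 25044054) had the smallest p for the tissue difference. It is annotated as similar to CYP72A5, a cytochrome P450 monooxygenase, one of the haem enzymes that oxidise hormones and secondary compounds. ZRR had 1.84, 2.42 and 1.82 FPKM, against 4.78, 5.18 and 4.50 FPKM in ZMR, and ZRS had 6.47, 5.16 and 8.38 FPKM, against 5.0, 3.86 and 3.96 FPKM in ZMS. Neither tissue had overlapping groups, and they ran in opposite directions. The tissue difference was -1.65 (95% interval -2.21 to -1.09, adjusted p = 0.173), the root response was called (-1.08, adjusted p = 0.0417, or 0.0856 with replicate number as a block within each tissue) and the shoot response was not (0.57, adjusted p = 0.368). Resupplied roots were at the level of +Zn roots, which had 2.22, 2.08 and 2.37 FPKM. The value lay between -2.24 and -1.48 over the 37 other settings tried, with limma's adjusted p between 0.000141 and 0.682. Across the 66 tested cytochrome P450 loci the median tissue difference was 0.05. At an unadjusted p under 0.05, 4 were positive and 4 negative (4.47% and 0.64% of all tested loci).

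The other loci with this opposite order, ZRR below ZMR and ZRS above ZMS without overlap, were Os06g0579100, Os11g0661300 and Os12g0420400. Os06g0579100, a conserved hypothetical protein, had 0.867, 0.581 and 0.584 FPKM in ZRR and 3.97, 2.72 and 1.41 FPKM in ZMR, with 1.86, 2.05 and 3.06 FPKM in ZRS and 1.85, 1.42 and 0.964 FPKM in ZMS. Os11g0661300, similar to an ADP/ATP translocase, had 1.08, 1.22 and 1.42 FPKM in ZRR and 2.37, 2.87 and 3.55 FPKM in ZMR. Os12g0420400, subunit XI of photosystem I, rests on a split within ZMS, which had 993, 4.44 and 4.22 FPKM, against 1341, 1100 and 1708 FPKM in ZRS.

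Os08g0360300 (chromosome 8, 16592885 to 16596465), which has no description in the files, was the second by p. It had 1.27, 1.18 and 0.741 FPKM in ZRR, against 5.34, 8.95 and 5.21 FPKM in ZMR, and fell in roots (-2.14, adjusted p = 0.000928). ZRS had 0.334, 0.536 and 0.570 FPKM and ZMS had 0.557, 0.328 and 0.575 FPKM, close to the minimum of 0.5 FPKM. Shoots were thus too low for a fall as large as in roots. The tissue difference was -2.13 (95% interval -2.87 to -1.39, adjusted p = 0.173). Os04g0471300, with no functional annotation, had 4.23, 4.10 and 1.78 FPKM in ZRR and 10.6, 16.9 and 10.3 FPKM in ZMR, with a tissue difference of -1.90. Os05g0469800, a pyruvate decarboxylase of the fermentation pathway to ethanol, had 1.90, 1.82 and 1.98 FPKM in ZRR and 4.69, 6.84 and 5.21 FPKM in ZMR, with a tissue difference of -1.46 (-2.25 to -0.67).

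Os02g0190600, which has a lycopene cyclase domain, as found in carotenoid synthesis, and overlaps Os02g0190500 on the other strand, was listed at 0 FPKM in all 3 ZRR libraries. ZMR had 6.18, 7.25 and 7.38 FPKM, ZRS had 20.3, 21.9 and 31.7 FPKM and ZMS had 21.6, 25.1 and 24.9 FPKM, with 8.29, 7.21 and 6.74 FPKM in ZPR. A listed 0 need not mean absence, because Os02g0300700, similar to the translation initiation factor eIF-1A, was likewise listed at 0 in all ZRR libraries and at 10.2, 7.72 and 12.1 FPKM in ZMR. Of the tested loci, 9 had a group listed at 0 in all its libraries.

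In other loci of negative tissue difference, resupplied shoots were above -Zn shoots. Os03g0231600, similar to a chloroplast branched-chain amino acid aminotransferase, had 13.9, 11.3 and 18.9 FPKM in ZRS and 8.47, 6.59 and 5.12 FPKM in ZMS, beside 5.46, 3.15 and 1.92 FPKM in ZRR and 6.07, 7.63 and 5.38 FPKM in ZMR. Its tissue difference was -1.93 (-2.84 to -1.02), made of -0.86 in roots and 1.07 in shoots. Os03g0314800, a neutral invertase that splits sucrose, had 3.71, 4.24 and 4.39 FPKM in ZRS and 2.22, 2.26 and 1.86 FPKM in ZMS, with 3.29, 3.94 and 3.34 FPKM in ZRR and 5.18, 4.75 and 3.29 FPKM in ZMR. Its tissue difference was -1.09 (-1.62 to -0.55), made of -0.27 in roots and 0.82 in shoots, and neither locus was called in a tissue.

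On the shoot side, a transcription factor gene was called in shoots and not in roots. Os02g0672100 (chromosome 2, 27315892 to 27325699), a C2H2-type zinc finger factor annotated with promotion of flowering, had 9.51, 13.1 and 9.34 FPKM in ZRS, against 26.0, 28.4 and 24.2 FPKM in ZMS. It fell in shoots (-1.27 ± 0.19, SE, adjusted p = 0.0152, or 0.0621 with replicate number as a block within each tissue), to the level of +Zn shoots at 10.9, 9.87 and 12.5 FPKM. Roots had 5.33, 7.61 and 8.84 FPKM in ZRR and 7.20, 5.92 and 7.98 FPKM in ZMR, a response of 0.02 ± 0.19. The tissue difference was 1.29 (95% interval 0.72 to 1.87, adjusted p = 0.59) and 1.02 after median-of-ratios scaling. A second locus called in shoots, Os01g0813800, had 3.02, 5.15 and 4.55 FPKM in ZRS and 11.8, 10.2 and 10.3 FPKM in ZMS (shoot response -1.28, adjusted p = 0.0175, or 0.083 with that block). ZRR had 1.81, 1.93 and 1.94 FPKM and ZMR 2.38, 2.93 and 3.64 FPKM, so the order was the same in roots, and the tissue difference was 0.75 (0.16 to 1.34).

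Larger but more variable shoot-sided values were found at 2 loci. Os03g0293100 (chromosome 3, 10208901 to 10210441), a conserved hypothetical protein, had 9.70, 4.98 and 8.65 FPKM in ZRS, against 60.7, 35.7 and 35.6 FPKM in ZMS and 6.75, 6.99 and 8.00 FPKM in +Zn shoots. Roots were at or below 2.26 FPKM in ZRR and 0.814 FPKM in ZMR, too low in ZMR for a fall as large as in shoots. Its tissue difference was 3.23 (1.84 to 4.62, adjusted p = 0.504), and the shoot response of -2.43 was not called (adjusted p = 0.107). Os07g0675100 (chromosome 7, 28559086 to 28562956), similar to a pectin methylesterase, an enzyme that modifies cell wall pectin, had 0.130, 0.192 and 0.0504 FPKM in ZRS and 1.15, 7.20 and 11.4 FPKM in ZMS. ZRR had 1.29, 4.15 and 2.35 FPKM and ZMR had 0.723, 0 and 2.07 FPKM, which overlap, and the tissue difference was 4.40 (2.31 to 6.50). All its ZRS values were under 0.5 FPKM, so it passed the shoot filter only through ZMS, which favours a fall in shoots.

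Small differences with narrow intervals were seen at moderately expressed loci. Os07g0462000, a glutamate-cysteine ligase that makes the first intermediate of glutathione, from which phytochelatins are built, had 27.8, 27.7 and 29.9 FPKM in ZRS and 46.1, 41.8 and 43.8 FPKM in ZMS. In roots it had 40.7, 39.3 and 39.3 FPKM in ZRR and 33.2, 35.7 and 39.5 FPKM in ZMR. Its tissue difference was 0.76 (0.37 to 1.14), or 0.47 after median-of-ratios scaling. Os01g0524700, with an armadillo-like helical domain, had 5.71, 7.15 and 5.61 FPKM in ZRS and 10.1, 10.4 and 10.0 FPKM in ZMS, and a tissue difference of 0.96.

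A further 5 loci among the 20 of smallest p had positive values and little annotation. Os04g0615600 had 1.45, 1.24 and 1.97 FPKM in ZRR and 0.442, 0.892 and 0.606 FPKM in ZMR, with 3.34, 4.35 and 3.54 FPKM in ZRS and 7.50, 8.57 and 6.14 FPKM in ZMS. Its groups ran in opposite directions in the tissues without overlap, and the tissue difference was 1.74 (1.07 to 2.40, adjusted p = 0.26). Os11g0323860 was carried by roots, with 15.6, 8.78 and 13.4 FPKM in ZRR and 4.70, 3.27 and 3.19 FPKM in ZMR, and had a tissue difference of 1.86. The merged locus Os12g0576100;Os12g0575300;Os12g0575400 had a value of 1.99, Os03g0775250 of 1.69 and Os04g0469800 of 1.15.

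**Figure D4:**
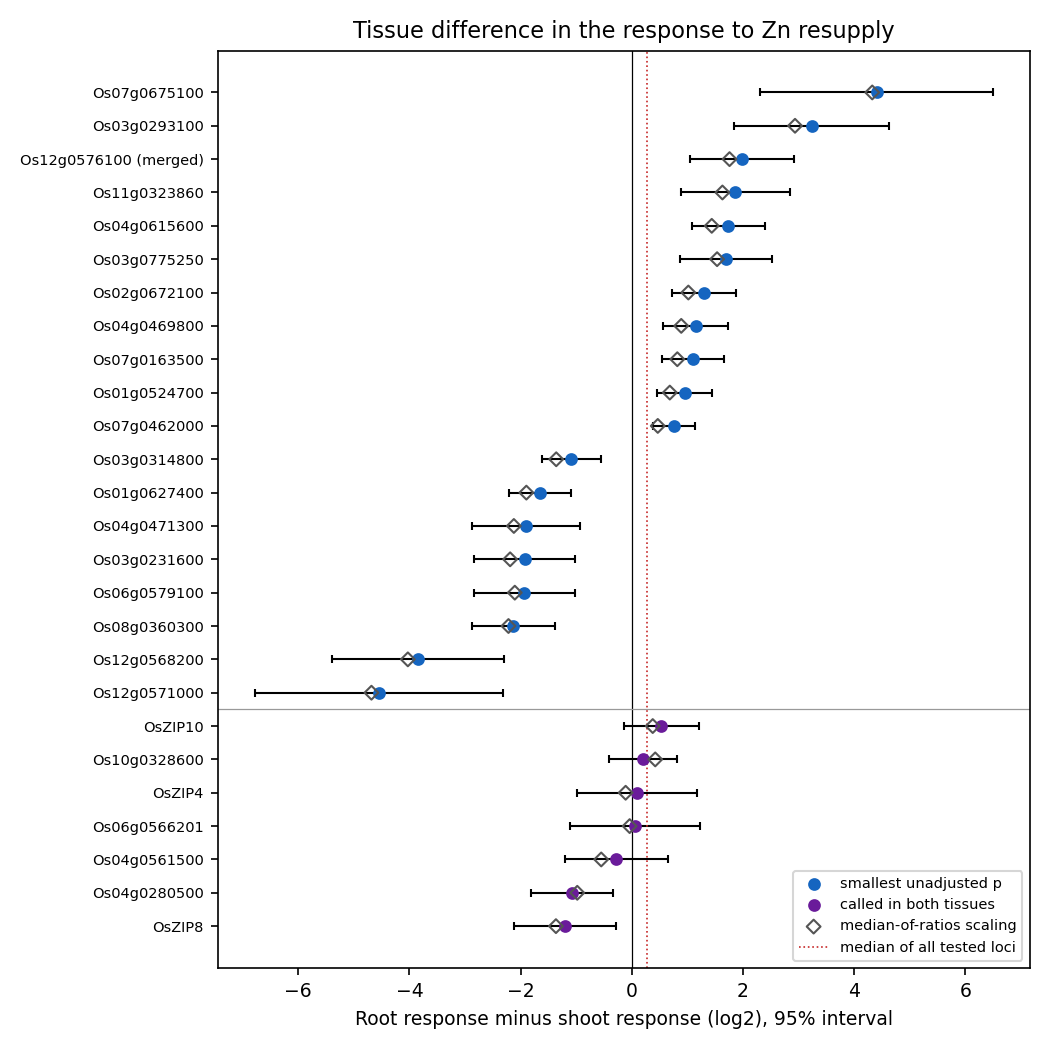
Tissue difference (root response minus shoot response, log2) with its 95% interval for the 19 of the 20 loci of smallest p that have no group at 0 (upper block, blue) and for the 7 loci called in both tissues (lower block, purple). Open diamonds are the values after median-of-ratios scaling, and the dotted line is the median of all tested loci, 0.28. Intervals of the upper block do not reach 0, none passes the adjusted threshold, and 5 of the 7 intervals of the lower block hold 0.

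The tested genes that the study names as recovered in both organs fell in roots and in shoots. That list was chosen by the study on these libraries and is no independent evidence. Of its 7 tested loci, 7 fell in roots (median -3.47) and 7 in shoots (median -3.43), and the median tissue difference was 0.06. OsZIP10 (Os06g0566300) had 1.63, 1.50 and 1.62 FPKM in ZRR against 32.3, 19.6 and 20.1 FPKM in ZMR, and 1.98, 1.46 and 2.10 FPKM in ZRS against 38.8, 49.6 and 28.4 FPKM in ZMS. Resupplied roots stayed above +Zn roots at 0.749, 0.904 and 0.984 FPKM. Resupplied shoots were below +Zn shoots at 3.26, 2.81 and 2.835 FPKM, without overlap in either organ. The tissue difference was 0.53 (-0.14 to 1.20). OsZIP4 (Os08g0207500) had 3.40, 2.99 and 6.49 FPKM in ZRR against 37.5, 19.2 and 27.6 FPKM in ZMR, and 1.67, 1.69 and 2.34 FPKM in ZRS against 8.02, 24.6 and 16.4 FPKM in ZMS, with a tissue difference of 0.09 (-0.98 to 1.17). For Os10g0328600, a hypothetical protein, the tissue difference was 0.20 (-0.42 to 0.81), for Os04g0561500, a prolyl endopeptidase, it was -0.28 (-1.21 to 0.65), and for Os06g0566201, which overlaps OsZIP10 on the other strand, it was 0.06 (-1.11 to 1.23). Os10g0328600 was at most 0.161 FPKM in ZRR and 0.292 FPKM in ZRS. It thus passed the filter only through ZMR and ZMS, which favours a fall in both organs, and its small tissue difference is bound by the 0.5 added to FPKM. An interval that holds 0 does not show equal responses, and these intervals allow differences of up to 1.23 in size.

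The other 2 of the 7 had intervals below 0. OsZIP8 (Os07g0232800, chromosome 7, 7394486 to 7398274), a Zn transporter, had 0.636, 1.14 and 1.20 FPKM in ZRR against 16.2, 14.1 and 14.3 FPKM in ZMR, and 5.90, 11.2 and 18.4 FPKM in ZRS against 44.9, 53.5 and 53.8 FPKM in ZMS. Roots were close to the +Zn level of 0.487, 0.855 and 0.909 FPKM, while shoots ranged from near to above the +Zn level of 5.41, 7.97 and 7.14 FPKM. The root response was -3.38 and the shoot response -2.19, both called, and the tissue difference of -1.20 (-2.12 to -0.28, unadjusted p = 0.0143) did not pass after adjustment. Os04g0280500, similar to an F-box protein, had 0.165, 0.200 and 0.564 FPKM in ZRR against 24.1, 14.6 and 15.3 FPKM in ZMR, and 0.251, 0.687 and 0.524 FPKM in ZRS against 9.57, 11.8 and 8.70 FPKM in ZMS. Its resupplied levels were alike in the organs, near or under 0.5 FPKM, while its -Zn level was higher in roots. The tissue difference was -1.08 (-1.82 to -0.35).

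The ZIP family had mostly positive tissue differences without a call, as did the tested loci as a whole. The list has 17 loci, of which 11 were tested, 1 of them (Os08g0500300) annotated in the files as a protein phosphatase 2C and not as a transporter. None was called for the tissue difference, 1 was negative at an unadjusted p under 0.05 (OsZIP8), and 10 had a positive value (90.9%, against 76.8% of all tested loci). The median was 0.47 against 0.28 over all loci, or 0.20 against 0.02 after median-of-ratios scaling, and 0.09 against 0.08 without ZRS 1 and ZRR 3. In roots 3 were called lower and in shoots 4 were. The fourth in shoots was OsZIP7 (Os05g0198400), with 1.73, 1.62 and 3.02 FPKM in ZRS against 6.21, 12 and 8.00 FPKM in ZMS (-1.81, adjusted p = 0.00728). OsZIP7 had 12.8, 11.4 and 8.56 FPKM in ZRR against 29.9, 21.9 and 22.3 FPKM in ZMR, groups that also did not overlap (-1.14, adjusted p = 0.29), and its tissue difference of 0.66 (-0.09 to 1.42) does not show that roots differ from shoots. The tissue differences of the 6 other ZIP genes were all positive and below 1, from 0.35 for OsZIP1 (-1.98 to 2.68) and 0.38 for OsZIP2 (-0.76 to 1.52), through 0.44 for OsZIP11, 0.47 for OsZIP14 and 0.49 for OsZIP13, to 0.75 for OsZIP6 (-1.13 to 2.63), and none was called in either tissue. Without ZRS 1 the value of OsZIP2 was 0.00 and that of OsZIP6 was 0.27.

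Other metal transport and chelation genes gave values without calls. Over 14 tested heavy-metal ATPase, MTP and NRAMP loci the median tissue difference was 0.09, and -0.18 after median-of-ratios scaling and -0.06 without ZRS 1, so its sign depends on the processing. The smallest p among them was that of OsNRAMP1, a metal ion transporter, which had 37.0, 30.6 and 14.3 FPKM in ZRR and 26.2, 25.3 and 19.5 FPKM in ZMR, with 1.37, 1.94 and 1.34 FPKM in ZRS and 0.741, 0.445 and 0.735 FPKM in ZMS (-0.74, -1.60 to 0.13, and -0.34 without ZRR 3). OsHMA9, a metal efflux ATPase, had a value of 0.40 (-0.12 to 0.91). OsNAAT1 (Os02g0306401), the nicotianamine aminotransferase of phytosiderophore synthesis, had 8.88, 15.8 and 20.5 FPKM in ZRS and 82.9, 67.0 and 79.9 FPKM in ZMS, and its shoot response of -2.38 was not called (adjusted p = 0.107). In roots it had 98.5, 99.6 and 20.4 FPKM in ZRR and 126, 155 and 142 FPKM in ZMR, where the lowest value was again that of ZRR 3, and the tissue difference was 1.13 (-0.26 to 2.52), or 1.88 without ZRR 3. The +Zn level differed between the organs, at 297, 238 and 326 FPKM in roots, above both other root groups, and at 5.47, 4.74 and 7.22 FPKM in shoots, below both other shoot groups. OsDMAS1, the next enzyme of that pathway, had a value of 0.20 (-1.05 to 1.45), which was -0.05 without ZRS 1 and 0.62 without ZRR 3. Among 8 tested Fe homeostasis loci, OsHRZ2, a RING-type regulator of Fe deficiency responses, had 11.9, 10.4 and 13.2 FPKM in ZRR and 7.66, 8.10 and 7.41 FPKM in ZMR, and 2.64, 4.24 and 4.31 FPKM in ZRS and 3.79, 4.35 and 4.87 FPKM in ZMS, with a tissue difference of 0.79 (0.23 to 1.35).

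The hemoglobin gene Os06g0591600, similar to Hb2, is a call in roots that the tissue difference does not set apart. It had 61.0, 39.4 and 39.0 FPKM in ZRR against 107, 99.6 and 97.7 FPKM in ZMR (-1.15, adjusted p = 0.0323). Shoots had 34.0, 33.7 and 30.3 FPKM in ZRS against 67.6, 67.9 and 60.9 FPKM in ZMS (-0.99, adjusted p = 0.107). The groups were apart in both organs, and the tissue difference was -0.15 (-0.73 to 0.42), an interval that stays within 1 of 0.

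Phosphate genes had a negative median whose size depended on the libraries. Of 11 loci of phosphate transport and SPX signalling 5 were tested, with a median tissue difference of -1.01 (-1.29 after median-of-ratios scaling, -0.57 without ZRS 2, -0.44 without ZRS 1 and ZRR 3). At an unadjusted p under 0.05, 0 were positive and 1 negative (4.47% and 0.64% of all tested loci). OsSPX1, a sensor-type repressor of phosphate starvation responses, had 5.08, 6.20 and 2.55 FPKM in ZRS and 1.75, 2.11 and 1.82 FPKM in ZMS, with 3.10, 3.21 and 3.20 FPKM in ZRR and 2.43, 3.53 and 3.61 FPKM in ZMR. Its difference thus came from shoots (tissue difference -1.01, -2.03 to 0.00), and 5 loci are too few to describe the pathway. For OsPT4, a phosphate transporter, the value was -1.28 (-3.06 to 0.49), and -0.37 without ZRR 3, in which it had 0.493 FPKM, against 5.17 and 7.20 FPKM in ZRR 1 and ZRR 2.

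Genes of protein synthesis had median tissue differences above that of all loci, which for cytosolic ribosomal proteins rested on ZRS 1 and ZRR 3. These lists, apart from the ribosome pathway, were made after the values had been seen and are a description. Of 100 tested loci of aminoacyl-tRNA synthesis, whose enzymes charge tRNAs with amino acids, 93.0% had a positive value (76.8% of all tested loci), the median was 0.49, and 21 were positive and 0 negative at an unadjusted p under 0.05 (4.47% and 0.64% of all tested loci). After median-of-ratios scaling the median was 0.21, with 10 positive and 1 negative. Cytosolic ribosomal proteins (138 loci) had a median of 0.59 and 94.2% positive values, or a median of 0.30 after that scaling, with 5 positive and 0 negative at an unadjusted p under 0.05, and plastid-type ribosomal proteins (45 loci) had a median of 0.52, or 0.27. Over the 328 tested loci of the whole ribosome pathway 18 were positive and 2 negative at an unadjusted p under 0.05, and 6 and 3 after median-of-ratios scaling. For the cytosolic proteins and the whole pathway these shares are near the 4.47% of all tested loci and are no result about the members. None of these loci was called in either tissue. The whole pathway, as annotated, also holds the neutral invertase Os03g0314800, which is among its negative loci.

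The shoot side of this pattern differed between libraries of the same group. For aminoacyl-tRNA synthesis the median difference from the mean of ZMS was -0.76 in ZRS 1, 0.00 in ZRS 2 and -0.39 in ZRS 3, and for cytosolic ribosomal proteins it was -0.85, 0.44 and -0.87. In roots the cytosolic ribosomal proteins were at -0.32 in ZRR 1, 0.02 in ZRR 2 and 0.79 in ZRR 3 relative to the mean of ZMR. ZRS 1 and ZRS 3 were also the libraries with the largest share of FPKM in the 10 most abundant loci, and ZRR 3 was the shallowest, and the part of these features was not tested. Without ZRS 1 the median of aminoacyl-tRNA synthesis was 0.31 against 0.13 over all loci, and without ZRS 2 it was 0.73 against 0.42. Without both ZRS 1 and ZRR 3 the median was 0.08 for cytosolic ribosomal proteins and 0.11 for the whole ribosome pathway, against 0.08 over all loci, while it was 0.21 for aminoacyl-tRNA synthesis and 0.26 for plastid-type ribosomal proteins.

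Some plastid loci of small p are given by library. They come from these lists, from the photosynthesis pathway, and from a list of chaperonins made after the values had been seen. Os07g0163500 (chromosome 7, 3388047 to 3400185), a valyl-tRNA synthetase annotated with chloroplast ribosome biogenesis, had 11.9, 15.8 and 11.2 FPKM in ZRS against 26.9, 21.7 and 24.4 FPKM in ZMS, and 6.95, 8.48 and 10.4 FPKM in ZRR against 6.47, 7.38 and 8.12 FPKM in ZMR. The shoot groups were apart, the root groups overlapped, and the tissue difference was 1.10 (0.54 to 1.66), or 0.82 after median-of-ratios scaling. Os03g0704000, a 30S ribosomal protein S13, had 75.1, 65.9 and 60.7 FPKM in ZRS against 131, 116 and 109.7 FPKM in ZMS, and between 2.80 and 4.46 FPKM in ZRR and ZMR (0.83, 0.36 to 1.29). Os12g0541400;Os12g0541500, a merged locus that includes an elongation factor Ts, had 57.5, 63.5 and 57.6 FPKM in ZRS against 99.5, 104 and 95.5 FPKM in ZMS (0.79, 0.36 to 1.22). Os09g0438700, a chloroplast co-chaperonin that helps proteins such as Rubisco fold, had 33.4, 42.4 and 25.3 FPKM in ZRS against 78.5, 72.7 and 56.8 FPKM in ZMS (1.01, 0.36 to 1.66). The shoot groups did not overlap at these loci, which the choice by p favours, and no shoot response was called. Over all 45 plastid-type ribosomal proteins the median difference from the mean of ZMS was -0.62 in ZRS 1, -0.11 in ZRS 2 and -0.61 in ZRS 3.

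Lists of photosynthesis genes had lower medians, with exceptions among their members. The 11 tested loci of light harvesting and Rubisco small subunits had a median of -0.10 (-0.39 after median-of-ratios scaling, 0.09 without ZRS 1). Their summed FPKM was 8062, 5057 and 8792 in ZRS and 8217, 5744 and 8088 in ZMS. At an unadjusted p under 0.05, 0 were positive and 1 negative (4.47% and 0.64% of all tested loci). The negative locus was Os12g0274700, a Rubisco small subunit, at 10.0, 14.5 and 12.7 FPKM in ZRR and 47.2, 17.6 and 109 FPKM in ZMR, far under its shoot level of at least 1163 FPKM. The 34 tested loci of the photosynthesis pathway had a median of 0.03, or 0.23 without ZRS 2, but 6 were positive and 1 negative at an unadjusted p under 0.05, a larger positive share than the 4.47% of all tested loci. After median-of-ratios scaling there were 2 positive and 1 negative. The positive loci include the merged locus Os12g0541400;Os12g0541500, which holds an elongation factor Ts.

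**Figure D5:**
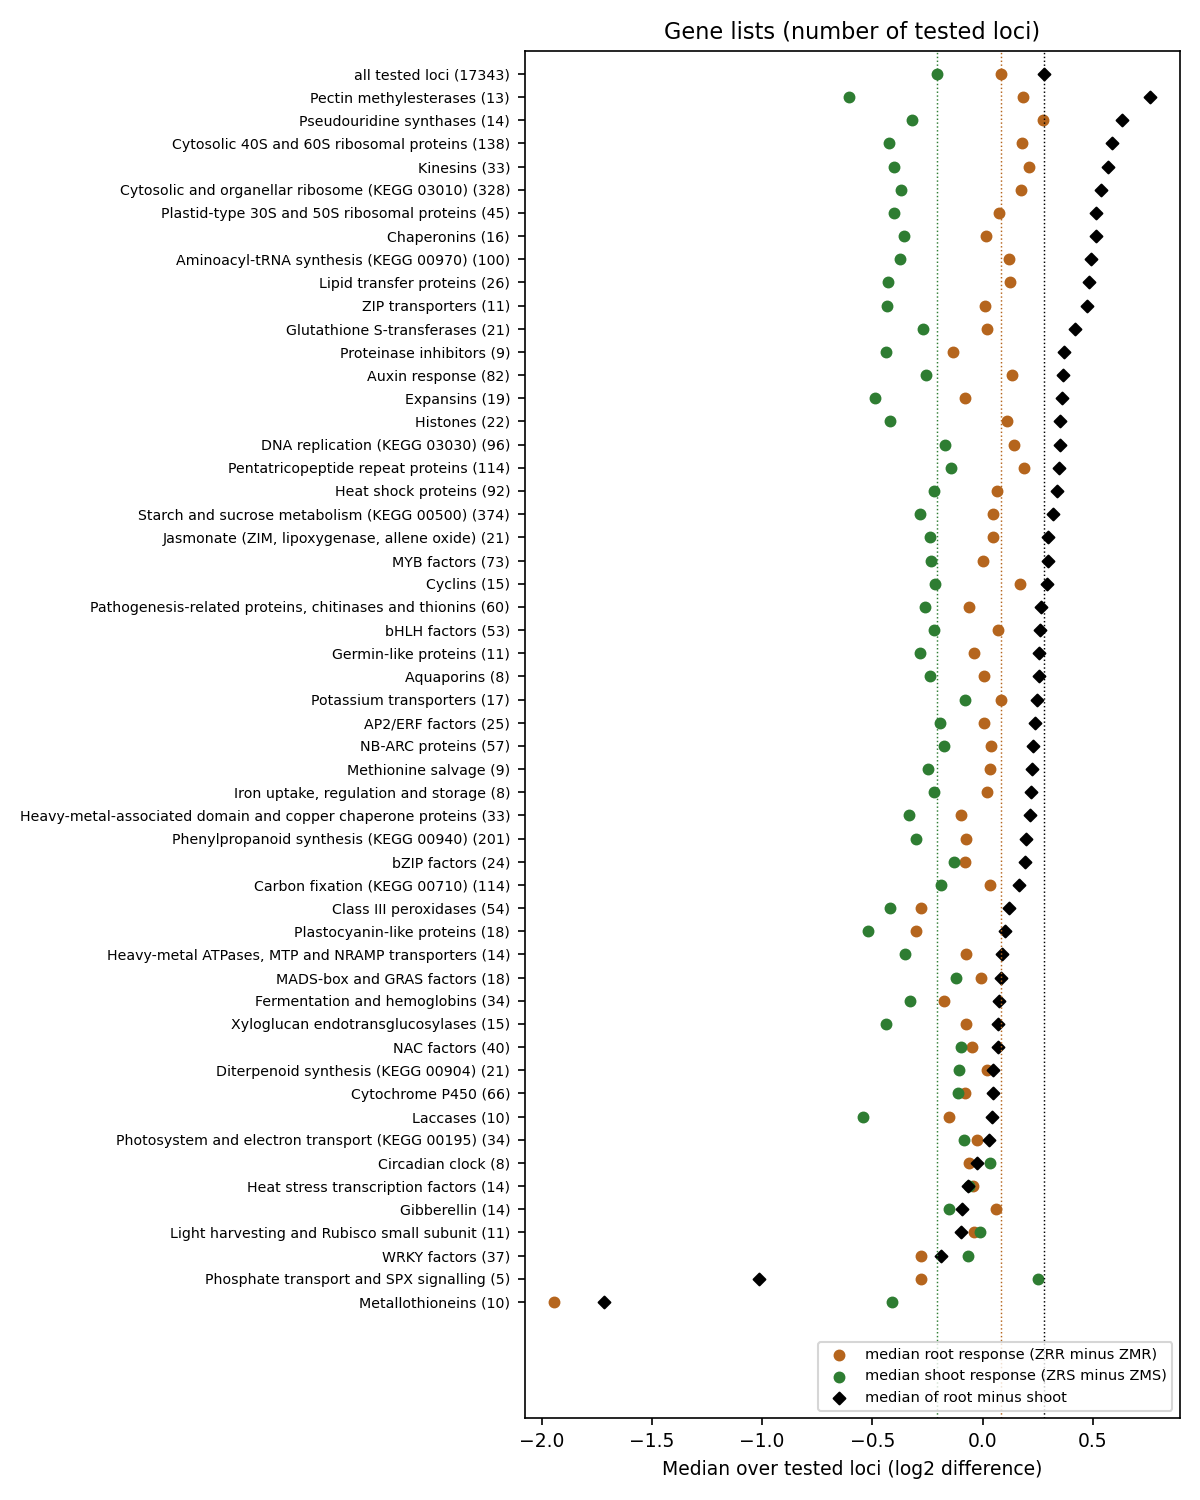
Median root response (brown), shoot response (green) and tissue difference (black diamonds) of gene lists with at least 5 tested loci, in log2, with the number of tested loci in brackets and the medians of all 17343 tested loci as dotted lines. Most lists lie close to the dotted lines, ribosomal and tRNA charging lists to the right of the black line with medians between 0.49 and 0.59, pectin methylesterases farther right at 0.76, and metallothioneins far to the left at -1.72.

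Growth and carbohydrate lists differed in how far they lay from the background. Over all tested loci, 4.47% were positive and 0.64% negative at an unadjusted p under 0.05, or 1.54% and 1.59% after median-of-ratios scaling. The 19 tested expansins, which loosen cell walls, had a median of 0.36, and 1 was positive at an unadjusted p under 0.05, Os10g0555600 at 2.34 (0.09 to 4.58). Its ZRR libraries had 98.5, 215 and 48.3 FPKM and its ZMR libraries 24.9, 32.1 and 197 FPKM, so the root groups overlapped. Starch and sucrose metabolism (374 tested loci) had a median of 0.32, with 29 positive and 4 negative, and 0.07 with 9 positive and 10 negative after median-of-ratios scaling. Of 13 tested pectin methylesterases, a list made after the values had been seen, 3 were positive and 0 negative at an unadjusted p under 0.05, with a median of 0.76, or 0.52 after that scaling. The positive loci include Os07g0675100, which passed the shoot filter only through ZMS. The 33 tested kinesins, motor proteins of the spindle and of transport along microtubules and likewise a list made after the values had been seen, had a median of 0.57 with 90.9% positive values, or 0.35 after that scaling, and a median of 0.03 without ZRS 1 and ZRR 3, against 0.08 over all tested loci. WRKY factors (37 tested), regulators of stress responses, had a median of -0.19, or -0.40 after that scaling, with 0 positive and 1 negative. That locus was Os05g0537100 (WRKY transcription factor 10), at 0.613, 0.347 and 0.666 FPKM in ZRR and 2.05, 2.77 and 0.852 FPKM in ZMR, and at 1.50, 0.935 and 1.23 FPKM in ZRS and 1.41, 0.191 and 0.313 FPKM in ZMS (-1.85, -3.17 to -0.54). Methionine salvage, which recycles the methylthio group left by nicotianamine and ethylene synthesis, had a median of 0.22 over 9 tested loci with none at an unadjusted p under 0.05.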

How the data were processed

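Poly(A) RNA of 18 libraries, 3 for each of 6 groups of rice roots and shoots, was analysed from the tables deposited by the authors. FPKM values per locus and per isoform were deposited. FastQC, TopHat with Bowtie2, and Cufflinks with Cuffdiff appear in the submitters' processing notes, and the methods give the IRGSP-1.0 genome with RAP-DB genes. The tool that assembled the unnamed loci is not given in the sources used here. Reads with several alignments were allowed, so near-identical copies can share reads, and no source states that strand was used, so reads of overlapping loci cannot be told apart. Coverage per isoform, a signal in reads per base that the authors deposited beside FPKM, served only to gauge depth. The columns named L hold the shoot libraries. Read counts were not used here.

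A linear model of log2(FPKM + 0.5) with group as its only term (12 residual degrees of freedom) was fitted to all 18 libraries in limma 3.58.1 under R 4.3.3, with eBayes moderation and an intensity trend. P-values were adjusted by Benjamini-Hochberg over the 17343 tested loci, and a locus was called at an adjusted p of at most 0.05 with a log2 difference of at least 1 in size. Exact permutation p-values are not given, because with 3 libraries in each group they cannot go below 0.1. P-values measure the spread between pools of seedlings. Python 3.11.15 with pandas 2.3.3, numpy 2.4.6 and matplotlib 3.10.9 did the rest, and the fit was tested on simulated data.

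The members and gene lists were chosen with earlier results of these data known. Named loci are the 20 of smallest p, all tested ZIP loci, the genes the study names as recovered in both tissues, and up to 2 loci of smallest p of each discussed list. The loci called in a single tissue, the chromosome 12 metallothioneins, the 4 loci of opposite order, Os02g0300700, Os05g0111300, Os01g0149800, Os01g0200700 and 9 lists were named after their values were seen. Libraries of the same number deviated together within roots and within shoots (all correlations over 0.1), from the data and not from the labels, while between the tissues those of number 1 did and those of numbers 2 and 3 did so in part, so numbers were taken to pair libraries within a tissue only. The main model leaves this pairing out, and the fit with a replicate block within each tissue is given among the alternatives. Gene lists are described by counts and medians without a test. Alternatives covered pseudocounts, filters, scalings, weights, a replicate block and each library left out.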

Additional observations from a re-analysis of the deposited data

How the results depend on the processing

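Depth limits loci near 0.5 FPKM, and ZRS 1, ZRS 3 and ZRR 3 differ from the libraries of their groups, so shoot and tissue differences rest on libraries that disagree. Over 37 settings (34 planned, 3 added after seeing the data), the tissue difference gave 0 calls except for 1 with a pseudocount of 0.1 and with only the 12 libraries of the 4 groups, 3 with zeros beside a value above 1 FPKM as missing, 2 without both ZRS 1 and ZRR 3, 21 without a filter, 2135 with array weights, and 0 to 3 when each library was left out. With median-of-ratios scaling it gave 3 without ZRS 2 and 2 without ZRS 1 and ZRR 3. The 14 root calls became 8 with 0.5 FPKM required in all 12 libraries, 53 without a filter, 22 with zeros as missing, 158 with array weights, and 12 to 19 when a library was left out. The 10 shoot calls became 20 without a filter, 5 with only the 12 libraries, 1670 with array weights (174 higher), and 7 to 287 when a library was left out: 22 without ZRS 1 and 287 without ZRS 2 (3 higher). With median-of-ratios scaling they became 28 without ZRS 2, 17 without ZRS 1 and 17 without ZRS 1 and ZRR 3. The cause of these shifts was not tested.

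Of 2861 alternative values of 78 named loci, 2821 kept their side of the threshold, 40 passed it and 0 reversed. A reversal was counted only where the main unadjusted p was under 0.05 or the alternative was called. Settings that left out +Zn libraries, changed the filter or the estimate of spread, or added a replicate block could not change a locus's estimate. For those settings the lack of a reversal was fixed in advance and is no support. The sign of 12 loci changed in at least 1 setting, and of the 47 loci at an unadjusted p under 0.05 none did. The share of positive loci among those at an unadjusted p under 0.05 was 87.5%, and 49.2% with median-of-ratios scaling and 43.7% with quantile normalization.

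Same-numbered libraries of ZRR and ZMR, and of ZRS and ZMS, had correlations of their deviations between 0.101 and 0.352, while those between tissues ranged from -0.0861 to 0.372, and not every library correlated best with its own number. With the replicate block the tissue difference gave 0 calls (1557 loci at an unadjusted p under 0.05), roots 14 and shoots 10. With a replicate block within each tissue it gave 0, roots 14 and shoots 8, and the calls of Os01g0627400 and Os02g0530100 in roots and of Os02g0672100 and Os01g0813800 in shoots were lost. At an unadjusted p under 0.05 limma then gave 1637 loci for the tissue difference, 1465 positive and 172 negative, against 887 in the main fit without a block.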

Other observations

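Loci expressed in only 1 organ were outside the comparison. Without the filter on level, 29776 loci above 0 FPKM in at least 1 root and at least 1 shoot library of the 4 groups were tested. Of these, 21 were called for the tissue difference (1 positive, 20 negative). Among the calls, 15 did not reach 0.5 FPKM in 3 of the 6 shoot libraries, 4 did not in roots and 2 passed in both. Where 1 organ is that low, the tissue difference is mostly the response of the other organ alone. Of the root loci, 11 lie in a run on the minus strand of chromosome 8 (IRGSP-1.0, 15736243 to 16151817), all hypothetical or unnamed, with at most 5 exons. Their medians were 0.283, 0.242 and 0.216 FPKM in ZRR, against 11.3, 13.1 and 9.23 FPKM in ZMR, with 2.88, 2.19 and 5.45 FPKM in +Zn roots. No locus of the run was above 0.328 FPKM in ZRS or 0.425 FPKM in ZMS, and the root response ranged from -4.52 to -2.15, with adjusted p in that fit between 5.4e-07 and 0.00023. The merged locus Os08g0352100;Os08g0353700 spans 4 of the other loci, so that reads may be shared between them and the 11 may not be separate observations. The locus Os08g0360300, called in roots, lies at a higher coordinate, outside the run.

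MSTRG.30070, an unnamed locus with 3 exons at 23378602 to 23380078 in the metallothionein cluster of chromosome 12, had 0.683, 0.488 and 0.212 FPKM in ZRR, against 122.5, 89.2 and 63.8 FPKM in ZMR and 12.1, 8.36 and 44.4 FPKM in ZPR. It was at most 0.680 FPKM in ZRS and ZMS. Os04g0617900, similar to a germin-like protein of the cell wall, had 0.532, 0.812 and 1.04 FPKM in ZRR, against 5.07, 13.3 and 7.81 FPKM in ZMR.

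In shoots, 4 loci that did not reach 0.5 FPKM in 3 of the 6 root libraries rose after resupply in the fit without a filter. Os06g0639800, a cytochrome P450, had 7.71, 3.33 and 4.56 FPKM in ZRS, against 0.165, 0 and 0 FPKM in ZMS, and 6.34, 5.99 and 4.73 FPKM in +Zn shoots. Os03g0752500, similar to a cysteine proteinase of protein turnover, had 64.7, 31.1 and 53.9 FPKM in ZRS and 12.3, 9.96 and 5.71 FPKM in ZMS. Os11g0577866, a conserved hypothetical protein, had 13.0, 6.25 and 4.58 FPKM in ZRS, and the non-coding Os01g0322700 had 2.99, 3.77 and 3.36 FPKM in ZRS, and both were listed at 0 in all ZMS libraries.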
